A study of Drosophila melanogaster with 312 samples.

Results

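The generation-to-generation course of female gene expression was followed in 155 of the 312 RNA-seq libraries of a selection experiment on night sleep in Drosophila melanogaster. The series holds 156 female libraries, all of which were taken except C2_G2_F_R1, a control library of generation 2 whose sperm and testis transcripts summed to 6560 normalized counts against at most 580.4 in the female libraries kept. Each library came from a pool of 10 whole virgin females frozen at midday, after 4 days in same-sex vials and 4 days in sleep monitors. The flies descended from an outbred population founded with 10 inbred wild-derived lines, and this ancestry was common to every group. From it came 2 control populations mated at random (C1 and C2), 2 populations selected for long night sleep (L1 and L2) and 2 selected for short night sleep (S1 and S2). In each population 2 pools were read at generation 0, before selection had acted, and at generations 2 to 13, which gave 12 libraries a generation and 11 in generation 2. The question was which genes rose or fell together from one generation to the next in all 6 populations, whatever the selection scheme. The populations were kept apart, and neither the labels nor the study's methods state whether flies of a generation were raised or collected on the same days. The labels also name no extraction or sequencing batch, so a shared change of the flies and a difference between batches of libraries cannot be told apart.

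In selection experiments, unselected controls are carried along because populations kept side by side share conditions that can change from generation to generation. A whole female fly is in large part ovary, gut, fat body and muscle, and transcripts of these tissues are known to respond to feeding, temperature, age, egg production and infection. In bulk samples of this kind, fewer cells of a type and less RNA per cell cannot be told apart.

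The female libraries held from 34242873 to 109389826 counted reads, with a median of 43199818, and generation 11 was the deepest, with a median of 71659632 against medians of 36372077 to 55658033 in the other generations. Yolk protein transcript Yp1 (37921 to 363948 normalized counts) and the oocyte transcript osk (37531 to 78469) were present in every female library kept. The summed level of 12 seminal fluid genes lay between 7.53 and 132.8 in those libraries except the first pool of L2 at generation 5, where it was 5137. Pools of the same population and generation differed by more than sampling noise in every case (chi-square per degree of freedom of 6.99 or more, median 32.2).

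Most of the transcriptome moved with generation. Of 10028 genes tested, 7501 (74.8%) had a shared generation course at an adjusted p under 0.001. The 12 generation terms were tested together by the quasi-likelihood method of edgeR, with an intercept for each population, on the 78 sums of pools and with Benjamini-Hochberg adjustment over all genes tested. The swing of a gene, here the log2 difference between its highest and lowest fitted generation, had a median of 0.63 among called genes (1.54-fold), with a middle range of 0.43 to 0.90. A swing of 1 or more was seen in 1448 called genes and one of 2 or more in 131. In direction, 7179 genes (71.6% of those tested, 95.7% of those called) were higher in their highest than in their lowest generation in all 6 populations. In 5710 called genes the 6 populations did not overlap between those generations, a count taken among called genes only. Both generations were picked from the same values, so part of this agreement is built in and neither count is a test. Generation accounted for a median of 63.6% of the variation within populations among called genes and of 54.7% over all genes tested, where 16.7% would come from its degrees of freedom.

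The courses were not steady drifts. A test of the 11 terms beyond a straight line called 6039 genes (60.2%), and 6014 of these were also among the shared courses. Called genes had their highest level most often in generation 11 (1557 genes), generation 0 (1318) and generation 12 (1065), and their lowest most often in generation 3 (1309), generation 11 (1219) and generation 0 (1157). The leading component of the fitted courses held 54.9% of their variance and set generations 9, 11 and 12 apart from generations 0, 3, 7 and 5. The next components held 16.3% and 12.1%.

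The course was compared between control, long and short populations with an interaction test in edgeR. It called 0 genes (0.0%), the smallest adjusted p was 0.0396, and 106 genes (1.06%) had an unadjusted p under 0.05. That share is below the one a cutoff of 0.05 gives when no course differs. Only 2 populations stood behind each scheme, and no other count model was run on this comparison. The 2 populations of a scheme carry different numbers, so deviations tied to the number, described below, enter the error of this test. A count of 0 thus does not show that the courses were alike. The paper, with a linear slope for each scheme, did call female genes for an effect of selection over generations. When single libraries were entered in place of sums, so that pools counted as replicates, 49 genes were called.

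The populations resembled each other more by their number than by their scheme. Deviations from the shared course correlated with a median r of 0.02 between populations of the same number, of -0.34 between populations of the same scheme and of -0.33 between the others. These are correlations across genes within a generation and carry no test. Deviations from a mean of the 6 populations tend to correlate below 0 by construction. The gap was uneven over generations. In generation 4 the median r was 0.61 between populations of the same number and -0.74 between those of other numbers, but in generation 7 both were -0.16. An interaction of generation with the number of the population, added after seeing the data, called 3790 genes (37.8%), of which 2840 were among the 7501. That count fell to between 26 and 2402 when pools or populations were left out, the lowest value without the second pools and the highest without L1. With the terms for number by generation added to the edgeR fit, 8632 genes were called for the shared course. Because populations of a number shared deviations in some generations, the shared course was also tested by limma on 26 means, one for each set and generation. This stricter fit, also added after seeing the data, called 2096 genes (20.9%), 2095 of them among the 7501. It is cited below for some genes and lists. Where no other fit is named, adjusted p for courses and generations come from edgeR on pool sums, which takes the 6 populations as independent.

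Genes that stood apart in a generation were those that differed from the mean of the other 12 generations by 1 or more on the log2 scale at an adjusted p under 0.001. There were 291 such genes (2.9%). The side of a population was taken on its normalized counts, against the mean of its other generations, and not on the log2 scale. Generation 12 had the most lower genes (84, or 0.838% of those tested, 79 of them on the same side in all 6 populations), and generation 11 the most higher genes (62, 0.618%, 56 in all 6). Generation 9 followed with 34 higher genes (0.339%, 27 in all 6), as many as generation 12 (34, 0.339%, 29 in all 6). Generation 3 had 26 higher (0.259%) and 25 lower genes (0.249%), of which 24 on each side moved alike in all 6. In the other generations the higher genes were 14 (0.14%) in generation 0, 15 (0.15%) in 2, 24 (0.239%) in 4, 9 (0.0897%) in 5, 12 (0.12%) in 7, 8 (0.0798%) in 8, 1 (0.00997%) in 10 and 13 (0.13%) in 13. The lower genes were 10 (0.0997%) in generation 0, 2 (0.0199%) in 2, 25 (0.249%) in 4, 10 (0.0997%) in 5, 13 (0.13%) in 6, 8 (0.0798%) in 8, 9 (0.0897%) in 9, 11 (0.11%) in 10, 22 (0.219%) in 11 and 3 (0.0299%) in 13. Many of these numbers moved by over 1.5 times when pools or a population were left out. In generation 12 the lower genes were 42 without the second pools, 41 without L2, 42 without S2 and 146 without C1, and the higher genes were 56 without the first pools. In generation 11 the higher genes were 39 without C1. In generation 3 the lower genes were 12 and 13 without the first and the second pools, 14 without C1 and 13 without S2. In generation 0 the higher genes were 26 without the second pools, 29 without L1, 23 without S1 and 24 without pools whose labels differ. In generation 5 the higher genes were 1 without the first pools or L2, and 2 without the first pool of L2 alone. In generation 6 edgeR called no lower gene of that size without the first pools, and 3, 3, 4, 8 and 7 without C1, C2, L1, S1 and S2. In generation 8 the higher genes were 4 without the second pools and 5 without any of C2, S1 and S2, and the lower genes 4 without the first pools. In generation 10 the lower genes were 29 and 6 without the first and the second pools, 7 without C2, 21 without L1 and 5 without L2 or S1, and the higher genes at most 3. The lower genes of generation 2 were 1 and 4 without the first and the second pools and 6 without S1, and those of generation 13 were 1 without the second pools, C1, L2 or S2.

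Most differences in a generation were smaller than 1. At any size and an adjusted p under 0.001, the share of genes that were higher was largest in generations 11 (25.0%), 12 (23.5%) and 9 (20.4%), followed by 0 (14.9%), 13 (11.2%) and 3 (8.7%). It was 6.61% in generation 5, 5.85% in 10, 5.51% in 8, 4.09% in 7, 2.91% in 2, 1.98% in 4 and 0.269% in 6. The share that were lower was largest in generations 11 (16.6%), 3 (15.6%), 12 (14.4%), 9 (13.9%), 0 (13.7%) and 7 (10.2%). It was 6.52% in generation 8, 6.13% in 5, 5.34% in 2, 4.31% in 13, 3.05% in 4, 2.91% in 10 and 0.927% in 6. By these shares generations 11, 12, 9 and 0 stood farthest from the average of the others and generation 6 nearest to it.

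**Figure D1:**
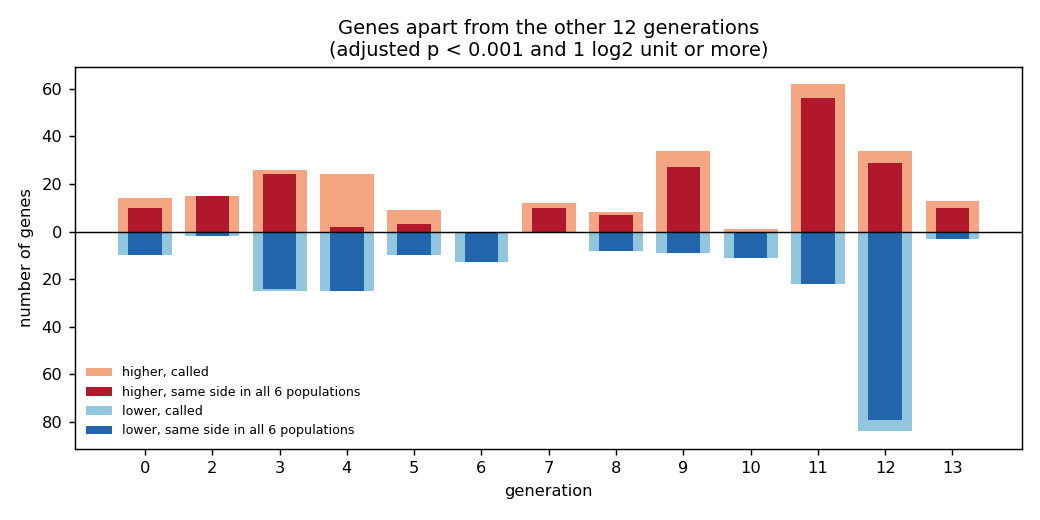
Number of genes that differed from the mean of the other 12 generations by 1 or more on the log2 scale, by generation (0 and 2 to 13), with higher genes drawn upwards and lower genes downwards. The dark part of each bar counts genes on the same side in all 6 populations, such as 56 of 62 higher in generation 11 and 79 of 84 lower in generation 12, whereas only 2 of 24 higher genes in generation 4 were. Sides are taken on normalized counts against the mean of the population's other generations. On the log2 scale only 5 of 13 lower genes of generation 6 were below in L2, and 8 of 10 of generation 5 in L1.

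Genes encoded by the mitochondrial genome had wide shared swings. These genes specify core subunits of the respiratory chain and of ATP synthase, and their transcripts are made inside the organelle from polycistronic precursors. All 10 of the 13 that could be tested were called, beside 74.8% of all genes, and all 10 were also called on the 26 means, where the background was 20.9%. Their swings had a median of 4.15, from 1.97 for mt:CoII to 5.49 for mt:ND3, beside 0.61 over all genes tested. Their courses were not called as different between the replicate sets, where mt:ND2 had the smallest adjusted p (0.00118), or between the sexes, where mt:CoII had the smallest (0.0603).

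mt:ND3, a subunit of complex I (mitochondrial genome, positions 5608 to 5961 of BDGP6.54), ran from 2318 to 3970 normalized counts in the 12 libraries of generation 3, with a median of 2921. In generation 4 the libraries of the same 6 populations held 38.4 to 95.2, with a median of 62.8. The lowest library of generation 3 was thus far above the highest of generation 4. The change from the mean of the other generations was 3.29 ± 0.19 (SE) in generation 3 (adjusted p = 1.3e-21) and -2.67 ± 0.34 in generation 4 (adjusted p = 2.37e-08), and the swing was 45.1-fold (adjusted p = 1.15e-27).

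The transcript did not stay low. Median mt:ND3 was 1873 in generation 0, 2086 in generation 2 and 2063 in generation 7, and 134.8, 53.9, 138.9 and 171.3 in generations 5, 6, 8 and 9. Generations 10, 11 and 12 had medians of 70.5, 236.2 and 88.3, and generation 13 stood between the extremes at 783.8. Every library of generations 0, 2, 3 and 7 lay above every library of generations 4, 5 and 8 to 12. In generation 6 a single library was inside the high range, the second pool of L2 with 1064, whereas the other 11 held 42.9 to 88.7. The first pool of L1 in generation 5 (420.2, others 102.1 to 176.3) and the second pool of S1 in generation 8 (581.6, others 82.5 to 254.4) also stood above their generation. Leaving out these 3 libraries and the seminal fluid library of L2 left the swing of mt:ND3 at 5.49.

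**Figure D2:**
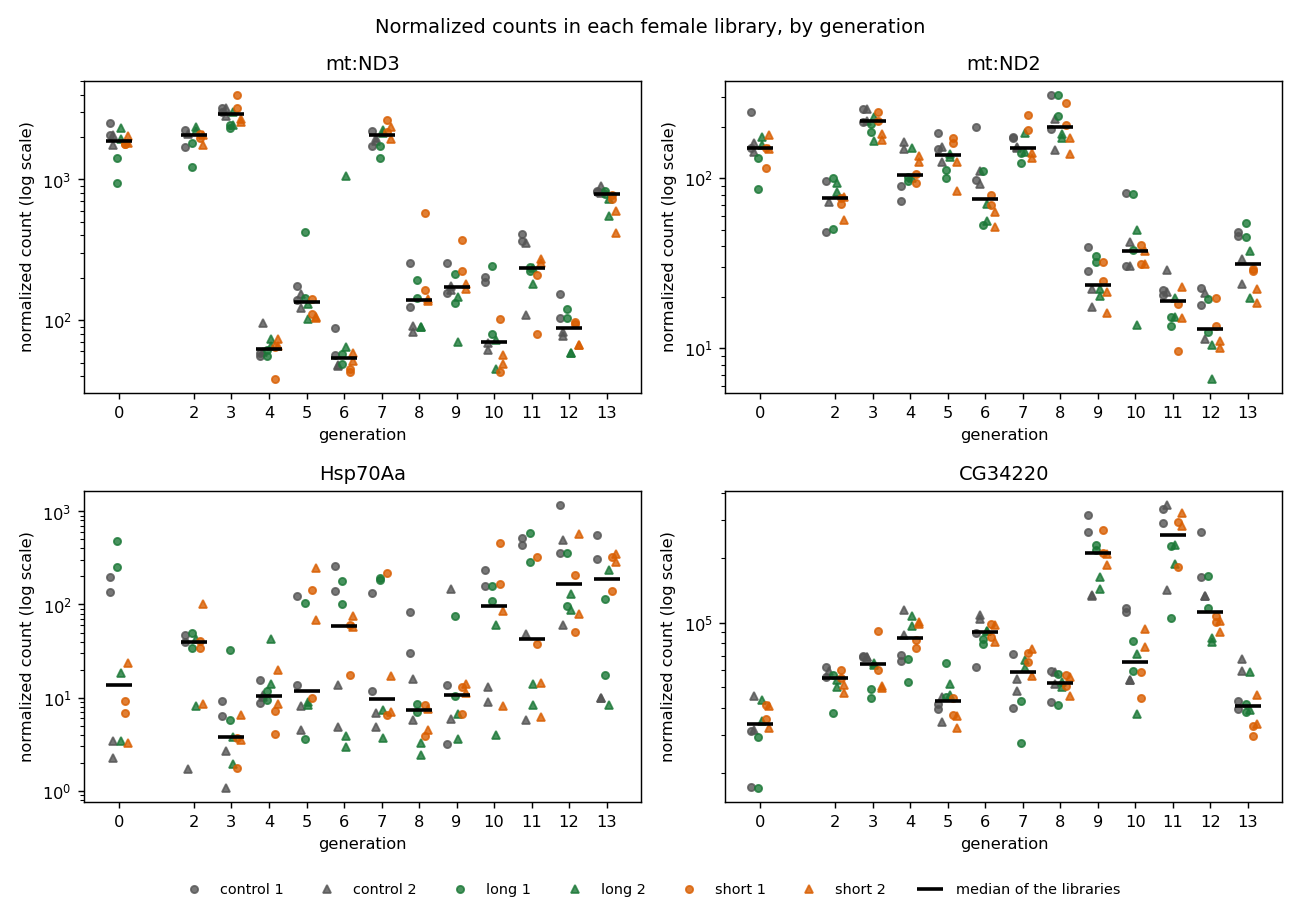
Normalized counts (log scale) of mt:ND3, mt:ND2, Hsp70Aa and CG34220 in each female library, by generation, with colour for the selection scheme, marker shape for the population number and a bar at the median of the generation. mt:ND3 drops from a median of 2921 in generation 3 to 62.8 in generation 4 and is back at 2063 in generation 7, whereas mt:ND2 has medians of 75.7 to 217 in generations 0 to 8 and of 13 to 37.6 in generations 9 to 13.

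The other mitochondrial genes followed mt:ND3 in part. mt:Cyt-b, the complex III subunit, held 81619 to 109364 normalized counts in the 11 libraries of generation 2 and 2921 to 5744 in generation 4, without overlap. Its difference was -3.24 ± 0.36 in generation 4 (adjusted p = 6.64e-10), the largest fall of that generation among genes that fell in all 6 populations. mt:CoI, the catalytic subunit of cytochrome c oxidase, went from a median of 230927 (182019 to 255821) in generation 3 to 38330 (33868 to 47032) in generation 4. Taken as a list, all 10 were higher in generation 3, where 8.7% of all genes were higher, and 9 were lower in generation 4, where 3.05% of all genes were lower. In generations 0, 2 and 7, 8, 9 and 9 of them were higher, beside 14.9%, 2.91% and 4.09% of all genes. In generations 5, 6 and 8, 8, 9 and 7 were lower, beside 6.13%, 0.927% and 6.52%. The fall of mt:Cyt-b in generation 6 (-1.70 ± 0.33, adjusted p = 0.000414) was lost without the first pools (adjusted p = 0.073) and without any of C1, C2, L1, S1 and S2, and it was -2.55 without the 4 libraries above.

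mt:ND2 (complex I, positions 240 to 1263) took another course. Its median was 217 in generation 3 (166.9 to 257.6) and 200.6 in generation 8, but 76.2 in generation 2 and 75.7 in generation 6, where it was not called as different. It was higher in generation 4 (0.80 ± 0.12, adjusted p = 9.88e-07), in which the other 9 were lower. In generation 12 it held 6.63 to 22.8, with a median of 13 (-2.47 ± 0.17, adjusted p = 3.61e-20). Generations 9 and 11, with medians of 23.7 and 19.1, were also below every library of generations 0 to 8. mt:ND1, also of complex I, was lowest in generation 4 (1779 to 2793) but highest in generation 11, where it ran from 8176 to 63740 (1.88 ± 0.16, adjusted p = 2.95e-16). The 10 transcripts thus did not share a single course.

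The 2 mitochondrial ribosomal RNAs moved too. mt:lrRNA held a median of 1622960 normalized counts in generation 3 (1480115 to 1903028) and 269976 in generation 4 (154623 to 480150), and mt:srRNA had a swing of 4.13. Together the 13 protein-coding mitochondrial genes took a median of 0.21% of all counted reads in generation 4 and 1.52% in generation 3. The libraries were made from polyadenylated RNA, and a part of that selection in these differences was not tested. Among nuclear genes, and chosen after their values were seen, CG6191 (6.35 to 27.2 in generation 4, 95 to 173.9 in generation 13), CG42613 (94.3 to 152.4 in generation 4, 352.2 to 1197 in generation 11) and lncRNA:flam, the transcript of the flamenco piRNA locus, had their lowest level in generation 4 as well, with swings of 3.04, 2.28 and 2.06.

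Nuclear genes of the respiratory chain had smaller swings than the mitochondrial ones. Of 58 tested, 57 were called, beside 74.8% of all genes, and 37 were called on the 26 means, beside 20.9%. Their median swing of 0.63 was close to the 0.61 over all genes tested. UQCR-11, a small subunit of complex III (chromosome arm 3L, 25120709 to 25126171), led them. It held 2640 to 4555 normalized counts in generation 0 (median 3086) and 504.9 to 676.9 in generation 12 (median 571.3), with no overlap. The swing was 2.43 (adjusted p = 4.01e-50), and generation accounted for 98.9% of its variation within populations. COX7AL2 was highest in generation 3 (123 to 435.3) and lowest in generation 10 (16.8 to 90.3), whereas COX7C was highest in generation 0 (3542 to 8014) and lowest in generation 11 (1266 to 2078). Both are cytochrome c oxidase subunits. Of the 58 genes, 29 were higher in generation 0, where 14.9% of all genes were, and 36 were lower in generation 11, where 16.6% of all genes were. Another 12 were higher in generation 11, beside 25.0% of all genes.

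Many cytoplasmic ribosomal protein genes were also high in generation 0 and low in generation 11. Of 84 tested, 82 were called, beside 74.8% of all genes, and 43 were called on the 26 means, beside 20.9%. In generation 0, 46 were higher, beside 14.9% of all genes. In generation 11, 10 were higher and 47 lower, beside 25.0% and 16.6% of all genes. They were further higher in generation 3 (36 of 84, beside 8.7% of all genes) and lower in generation 13 (35 of 84, beside 4.31%). RpS3A, a small-subunit protein (chromosome 4, 65225 to 67207), fell from a range of 112017 to 192047 in generation 0 (median 139262) to 34983 to 41038 in generation 12 (median 36180). Its differences were 0.85 ± 0.03 and -1.23 ± 0.04, and the swing was 1.92 (adjusted p = 1.28e-49). RpS9 ran from 47521 to 120415 in generation 0 and from 13070 to 23229 in generation 11 (swing 1.97, adjusted p = 1.09e-34), again without overlap. The course differed between the sexes in 63 of the 84, RpS3A among them (adjusted p = 2.36e-10), beside 13.0% of all genes tested.

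Mitochondrial ribosomal protein genes and those of the proteasome, the cell's main protease for tagged proteins, were called in most members. Of 72 mitochondrial ribosomal protein genes 70 were called (29 on the 26 means) and of 31 proteasome genes 28 (11 on the 26 means). Over all genes the shares were 74.8%, and 20.9% on the 26 means. mRpL34 held a median of 558.8 in generation 0 and 161.5 in generation 11, and the ranges, 447.9 to 1013 and 138.9 to 190.9, did not overlap. Prosalpha5, a subunit of the proteasome core, had medians of 9020 and 4540 in those generations (swing 1.06). In generation 0, 46 of the 72 and 20 of the 31 were higher, beside 14.9% of all genes. In generation 11, 39 and 17 were lower, beside 16.6%. Other generations differed from the cytoplasmic ribosomal proteins, since in generation 3 the mitochondrial ones had 11 higher and 10 lower and the proteasome 3 and 1. In generation 13 the mitochondrial ones had 16 higher and 4 lower and the proteasome 2 lower. Over all genes 8.7% were higher and 15.6% lower in generation 3, and 11.2% and 4.31% in generation 13. Polr2L, a small subunit shared by the RNA polymerases, and RNASEK, both named after their values were seen, fell from medians of 1076 and 4731 in generation 0 to 273.6 and 1304 in generation 12.

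Of 12 glycolysis genes tested 11 were called, beside 74.8% of all genes, and 5 on the 26 means, beside 20.9%. In generation 11, 1 of them was higher and 6 were lower, beside 25.0% and 16.6% of all genes. Hexokinase Hex-A, which commits glucose to the pathway, had its lowest level in generation 0 (6830 to 10383) and its highest in generation 11 (13161 to 25242), a 2.26-fold swing (adjusted p = 2.13e-35). Phosphoglycerate kinase Pgk went the other way, from 13393 to 19408 in generation 0 to 5301 to 9046 in generation 11 (a 2.15-fold swing, adjusted p = 3.1e-32). Neither pair of ranges overlapped.

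The length of a gene, and its mean count, went with its difference in some generations. Over 9876 genes with an exonic length, the rank correlation between length and the difference of a generation was -0.53 in generation 0, -0.30 in generation 8, between 0.28 and 0.35 in generations 9 to 12 and 0.01 in generation 13. The rank correlation with mean count was larger in size in generations 2 (-0.43, beside -0.11 for length), 3 (-0.36, beside -0.10) and 7 (-0.30, beside -0.13). So it was in generations 10 (0.45, beside 0.29) and 13 (0.22, beside 0.01), and in the other generations it was no larger than that with length. These are correlations across genes of the same libraries and carry no test. In generation 0 the shortest of 4 equal length classes (up to 1258 bases) had a median difference of 0.16 and the longest class (3496 bases or more) one of -0.21. In generation 11 the order was reversed, at -0.09 and 0.23. COX7C and RpS9 have exonic lengths of 853 and 1018 bases, inside the shortest class, and RpS3A and UQCR-11 of 1349 and 1613 bases, outside it. The part of length in their courses was not tested.

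**Figure D3:**
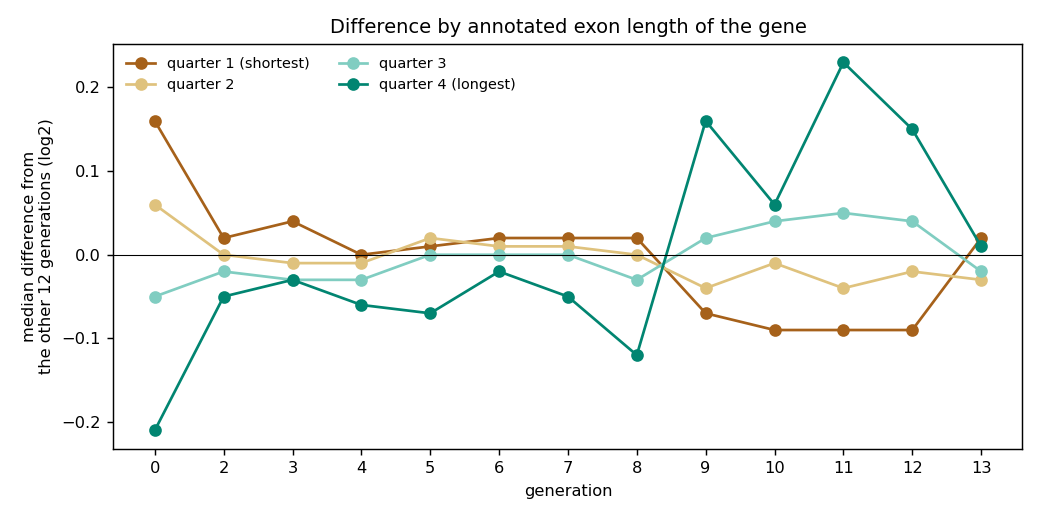
Median log2 difference from the mean of the other 12 generations for 4 equal classes of 9876 genes by exonic length, by generation. The shortest class lies at 0.16 and the longest at -0.21 in generation 0, and at -0.09 and 0.23 in generation 11.

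Several named genes had their highest level in generation 9, 11 or 12. CG34220, an uncharacterized gene chosen after its values were seen, held 17053 to 45706 normalized counts in generation 0, 104988 to 351660 in generation 11 and a median of 209245 in generation 9. Its ranges in generations 0 and 11 were far apart, and the swing was 2.82 (adjusted p = 1.63e-25, and 1.54e-06 by limma on the 26 means). CG15021 (3L, 4436721 to 4438311) rose most in generation 9, to 569.2 to 1377 with a median of 929.3 (1.85 ± 0.12, adjusted p = 8.34e-22), against 102.8 to 227 in generation 0. The pseudogene CR14578 (3L, 27849226 to 27850751) held 38.6 to 72 in generation 3 and 308.8 to 1049 in generation 12, with no overlap and a swing of 3.51. inaF-D (X, 11724668 to 11729099) was at 3.78 to 24.4 in generation 0 and 62.3 to 232.5 in generation 12, a swing of 3.35 (adjusted p = 1.72e-12).

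Genes with well-known roles were among the 62 of generation 11, and those named here were chosen after their values were seen. The voltage-gated sodium channel para had a median of 997.8 (715.7 to 1919) in generation 11 and of 322.9 (111 to 410.3) in generation 0. The BMP ligand dpp had medians of 546.2 and 182.8 and the stress-response factor Xrp1 of 19310 and 6112 in the same generations. Differences were 1.09 ± 0.12 for para, 1.06 ± 0.10 for dpp and 1.01 ± 0.10 for Xrp1, all with an adjusted p of 2.44e-12 or less.

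Hormone response genes were also tested as lists. Of 12 ecdysone and juvenile hormone response genes 11 were called, beside 74.8% of all genes, and 7 were higher in generation 11, where 25.0% of all genes were. EcR, the ecdysone receptor, rose from a median of 3075 in generation 3 (2698 to 3784) to 6462 in generation 11 (3784 to 9502), and was the single member called on the 26 means. Its course differed between the sexes (adjusted p = 6.72e-14). The insulin receptor InR had medians of 1789 in generation 4 and 3054 in generation 11 (swing 0.97, adjusted p = 5.23e-19), and the lipase gene bmm, whose product releases stored fat, of 4689 in generation 3 and 10840 in generation 11 (swing 1.24, adjusted p = 6.57e-19). Ilp2, an insulin-like peptide of the brain, moved the opposite way, from 134.1 to 228.3 in generation 0 to 40.3 to 135 in generation 12 (swing 1.28, adjusted p = 2.97e-12). Of 13 fasting and insulin genes 11 were called and 3 on the 26 means, shares near the 74.8% and 20.9% of all genes. In generation 11, 6 of them were higher and 1 was lower, where 25.0% and 16.6% of all genes were.

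Of the 84 lower genes of generation 12, those named next were chosen after their values were seen unless they are in a list. The pheromone-binding protein gene lush held 3.36 to 47.4 normalized counts in generation 12, with a median of 15.5, against 38.9 to 94.2 with a median of 66.1 in generation 7. The ranges overlapped at their ends, and the difference was -1.46 ± 0.20 (adjusted p = 2.3e-09, with 2.26e-05 for the course by limma on the 26 means). Obp56d, another odorant-binding protein gene, had a median of 4470 in generation 3 and of 1173 in generation 12. Of 26 odorant-binding protein genes 12 were called, below the 74.8% of all genes, and 4 were lower in generation 12, close to the 14.4% of all genes. Npc1b and Npc2e, genes of sterol uptake and transport, fell by 1.34 and by 1.16 on the log2 scale.

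Members of no fixed list, sad and sro encode a steroid hydroxylase and a dehydrogenase-family enzyme of ecdysone synthesis and were chosen after their values were seen. They had medians of 98.5 and 161.2 in generation 3 and of 15.3 and 33.8 in generation 12. Their ranges overlapped, since the highest libraries of generation 12 held 119.4 and 149.5. The differences were -1.18 ± 0.26 (adjusted p = 7.87e-05) and -1.04 ± 0.23 (adjusted p = 6.71e-05), sad lay on the same side in 5 of 6 populations, and neither course was called on the 26 means (adjusted p = 0.0799 and 0.0594). The course of sad was also lost without the second pools (adjusted p = 0.055) or C2, L2 or S2, and that of sro without S2 (adjusted p = 0.00104) or without the replicate block (adjusted p = 0.0012). The elongase eloF, which acts in female cuticular hydrocarbon synthesis, went from a median of 3128 to 876.1 between the same generations, and its course differed between the sexes (adjusted p = 0.000656). Without the second pools it was not called (adjusted p = 0.00204).

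Few immune peptide genes passed the test. Of 15 antimicrobial peptide genes tested 3 were called and of 12 Bomanins 6, beside 74.8% of all genes. By sign alone, 14 of the 15 peptide genes were above the other generations in generations 0 and 5 and 14 were below in generation 11, and all 12 Bomanins were below in generation 10, although at most 3 members of either list were called in any one direction and generation. The antifungal peptide gene Drs held 5740 to 13207 in generation 3 and 987.5 to 3241 in generation 11, without overlap (swing 2.07). BomS3 was higher in generations 9 and 11 (1.15 ± 0.15 and 1.21 ± 0.15), whereas its relative BomS4 was lower in generation 12 (-1.11 ± 0.15, adjusted p = 1.15e-09). PGRP-SA, a sensor of Gram-positive bacteria, went from a median of 278.4 in generation 0 to 85.6 in generation 11 (swing 1.69). The widest members of the peptide list, CecA1 and CecA2, had swings of 2.59 and 2.56 but adjusted p of 0.0837 and 0.178.

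Hsp70 transcripts had wide swings with wide scatter. The 6 genes of the list had a median swing of 3.76, from 1.94 to 5.87. Hsp70Aa (3R, 11954163 to 11956544), a heat-inducible chaperone gene, had the widest swing of all genes that passed the rule for named genes, 5.87. In generation 12 the 12 libraries held 50.6 to 1182 normalized counts with a median of 167.9, and in generation 3 they held 1.06 to 32.8 with a median of 3.75. The ranges did not overlap, although within every generation the highest library held over 10 times the lowest. Generation 12 differed by 2.94 ± 0.46 (adjusted p = 1.27e-07) and generation 3 by -3.41 ± 0.85 (adjusted p = 0.000693). Without the second pools the course of Hsp70Aa was not called (adjusted p = 0.00292) and its difference in generation 12 was 1.65, against 3.94 without the first pools. In generation 3 the call was lost without either set of pools and without any of C1, L1, L2, S1 and S2.

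The Hsp70 copies are nearly identical and only uniquely assigned reads were counted, so values are uncertain between copies. Of 6 genes of the list 5 were called, near the 74.8% of all genes: Hsp70Aa, Hsp70Ab, Hsp70Bb, Hsp70Bc and Hsp68. Without the second pools Hsp70Aa, Hsp70Ab, Hsp70Bb and Hsp68 were not called (adjusted p of 0.00292, 0.0198, 0.00349 and 0.0397). The last 3 of these were also lost without C1, S1 or S2, Hsp70Bb and Hsp68 without L2, and Hsp68 without the filter on low counts (adjusted p = 0.00104). By limma on the 26 means the 4 called Hsp70 copies had adjusted p of 0.0129, 0.0353, 0.0434 and 0.103 and were not called. Of 16 small heat shock and chaperone genes 5 were higher and 2 lower in generation 12, beside 23.5% and 14.4% of all genes, and 3 of 4 Turandot genes were below the other generations there. The cytokine gene upd3 had a median of 89.1 in generation 12 and of 18 in generation 3, and Ets21C, a factor downstream of JNK signalling named after its values were seen, of 300.6 and 46.7, but neither course was called without the second pools (adjusted p of 0.00121 and 0.00717), nor that of Ets21C without C1 (adjusted p = 0.00155). DnaJ-1, an Hsp40 co-chaperone, changed by less, from a median of 11374 (9356 to 12821) to 21019 (12497 to 26029), and it was called on the 26 means (adjusted p = 0.000277). The translation repressor Thor, a target of FOXO, was also highest in generation 12, with a median of 12553 against 5443 in generation 8.

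Of 14 digestive carbohydrase genes 2 were higher in generation 8, beside 5.51% of all genes, and by sign alone 14 of 26 digestive protease genes were above the other generations. LManIII, a lysosomal alpha-mannosidase (2L, 8765273 to 8768710), held 64.5 to 552.4 with a median of 253 in generation 8 and 1.14 to 40.7 in generation 0. The difference was 1.75 ± 0.40 (adjusted p = 0.000504), but the call was lost by DESeq2 (adjusted p = 0.00138), without the replicate block (adjusted p = 0.00481) and without C2, S1, S2 or either set of pools. Its course was lost without the second pools (adjusted p = 0.0157), the replicate block, C2, L2 or S2. Amyrel, an amylase-related gene, had its median at 725 (429.6 to 1724) in generation 8 and at 92.6 (13.3 to 461.4) in generation 12. The lipase gene Lip3, which rises on fasting in adult flies, was at 605.9 (313.4 to 1765) in generation 8 and 140.6 (54.5 to 314.2) in generation 3, and the ranges overlapped at their ends. Amyrel lost its course call without the second pools (adjusted p = 0.00504) and Lip3 without the first (adjusted p = 0.00538). Over all generations 11 of the 14 carbohydrase genes had a called course, near the 74.8% of all genes. On the 26 means Amyrel and Lip3 were not (adjusted p of 0.0399 and 0.0267 by limma).

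All flies were frozen at the same hour, and clock genes were followed on that account. tim, which encodes a partner of the period protein, was highest in generation 2 (2520 to 6214, median 3987) and lowest in generation 12 (916.4 to 2199, median 1308). The ranges did not overlap, and the difference in generation 2 was 1.09 ± 0.15 (adjusted p = 1.07e-07). vri and per, both part of the same feedback loop, were also highest in generation 2, by 0.68 ± 0.12 and 0.59 ± 0.10. Of 13 clock genes 12 were called, beside 74.8% of all genes, and 4 were higher in generation 2, beside 2.91%. On the 26 means 3 were called, near the 20.9% of all genes. tim was not among them (adjusted p = 0.0591), and its course differed between the replicate sets (adjusted p = 4.52e-06).

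Eggshell genes scattered widely and were mostly not called by edgeR. Of 9 chorion genes 0 were called by edgeR, although their median swing was 2.26, 4 had an unadjusted p under 0.05 and 0 were called by DESeq2. Cp15 ran from 25.7 to 43207 in generation 0 and from 25.6 to 9073 in generation 12 (adjusted p = 0.00158). Of 9 vitelline membrane genes 2 were called, below the 74.8% of all genes, one of them Vm26Ab, which was higher in generation 11 (1.41 ± 0.28, adjusted p = 1.8e-05). Without the second pools the course of Vm26Ab was lost (adjusted p = 0.00568). DESeq2 called 5 of the 9 vitelline membrane genes, beside 8212 of all 10028 genes. The 3 yolk protein genes were called, with Yp1 at 177632 to 281390 in generation 4 and 37921 to 146344 in generation 13, which did not overlap. Without the second pools Yp1, Yp2 and Yp3 were not called (adjusted p of 0.00533, 0.0261 and 0.00993), nor were they on the 26 means by limma (adjusted p of 0.0742, 0.179 and 0.0735).

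Of 20 maternal germline genes tested 12 were called, below the 74.8% of all genes, and 4 on the 26 means, near the 20.9% of all genes. Their median swing was 0.48, beside 0.61 over all genes tested. stau, which localizes messenger RNA in the oocyte, rose from a median of 10344 in generation 0 to 17438 in generation 11 (swing 0.80). Of 14 DNA replication genes 10 were called, near the 74.8% of all genes, and 1 on the 26 means, below the 20.9%. In that list the mitotic phosphatase gene stg rose from a median of 17493 in generation 3 to 33946 in generation 11 (swing 1.00). Lists of muscle sarcomere and phototransduction genes were called in 11 of 22 and 7 of 15 members, below 74.8%. The course differed between the replicate sets in 18 of the 22 and 12 of the 15, beside 37.8% of all genes.

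**Figure D4:**
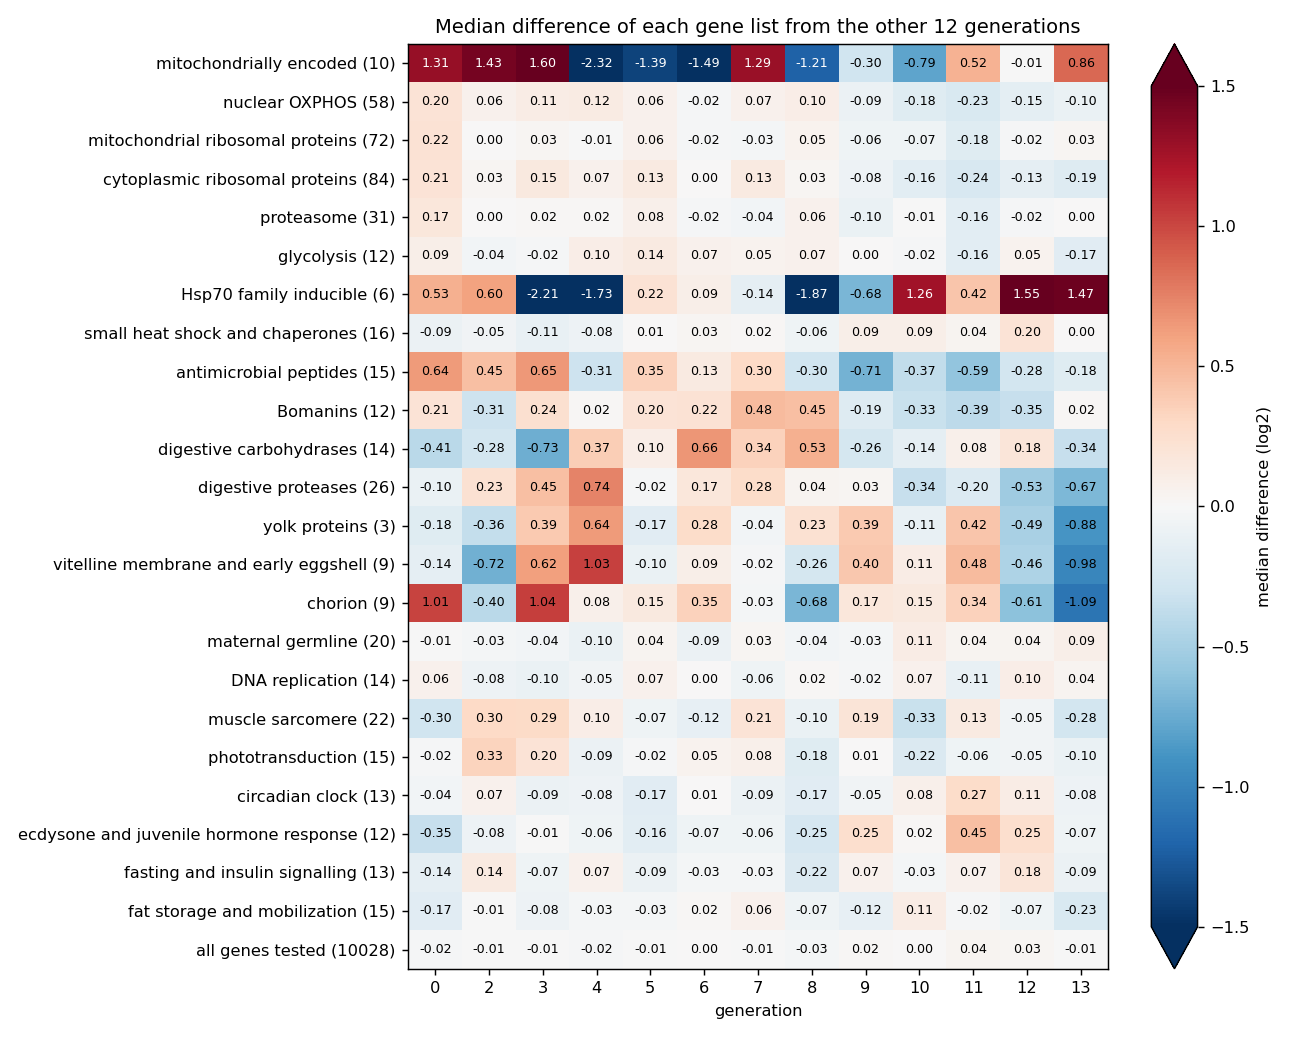
Median log2 difference from the mean of the other 12 generations for lists of genes (rows) in each generation (columns), with the values printed in the cells and all genes tested in the last row. The mitochondrially encoded genes run from -2.32 in generation 4 to 1.60 in generation 3 and the Hsp70 family from -2.21 in generation 3 to 1.55 in generation 12, whereas all genes stay between -0.03 and 0.04.

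In generation 4 the higher genes were those of one set of populations. Of the 24 higher genes (0.239%), 2 were on the same side in all 6 populations. On the log2 scale, 24, 24 and 23 of the 24 were above the other generations in L2, S2 and C2 against 10, 7 and 7 in L1, C1 and S1. The course differed between the replicate sets in 17 of the 24. Osi7, which like verm and lncRNA:roX1 was named after its values were seen, is a member of the Osiris family of insect transmembrane proteins. It reached 1576 normalized counts in C2, 438.8 in S2 and 58.7 in L2 and was at 0.924, 2.14 and 2.21 in C1, S1 and L1. verm, a chitin deacetylase gene that acts in tracheal tube and cuticle formation, was at 652.5, 381.1 and 378.1 in C2, S2 and L2 against 160.8, 118.8 and 113.2 in C1, S1 and L1. lncRNA:roX1, an RNA of the male dosage compensation complex, was at 191.3, 219.4 and 129.3 in C2, S2 and L2 against 26.8, 33.5 and 27.4. The groups of 3 did not overlap for these genes. The number of higher genes was 11 without the second pools, 46 without C1, 4 without C2, 40 without L1, 13 without L2 and 6 without S2, and without a filter on low counts it was 203.

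**Figure D5:**
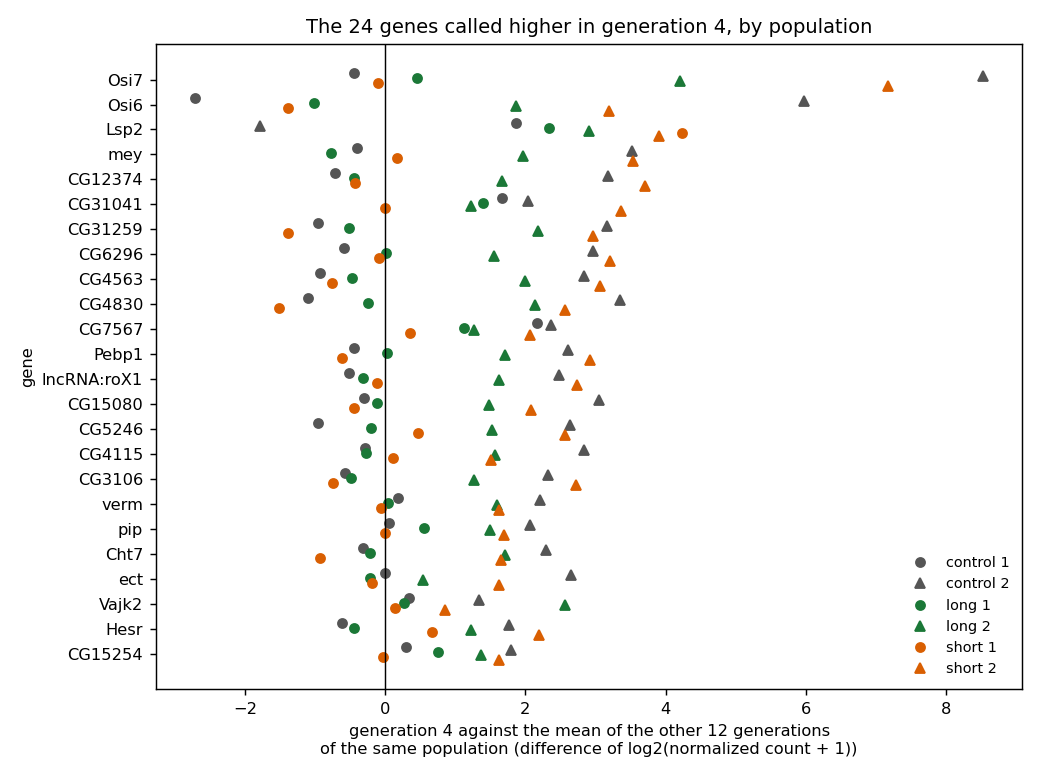
Log2 difference of generation 4 from the other generations of the same population for the 24 higher genes of that generation (rows). Each population is a marker, with colour for the selection scheme and shape for the population number. C2, L2 and S2 have medians of 2.63, 1.62 and 2.65, whereas C1, L1 and S1 have medians of -0.42, -0.21 and -0.09.

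The 2 genes of generation 4 that were higher in all 6 populations were CG7567, which the rule named, and Vajk2. CG7567 (3R, 29587237 to 29588104) held 30.8 to 603.5 with a median of 129.7 (1.55 ± 0.29, adjusted p = 8.26e-05), but its course over all generations was not called (adjusted p = 0.0019) and the difference was lost without C1, C2, S2 or the second pools. Lsp2, which encodes a storage hexamerin of larvae, was higher in generation 4 in 5 of 6 populations, at a median of 3628 (2.61 ± 0.41, adjusted p = 3.2e-06). C2 stood apart with 110.3 normalized counts, and the other 5 populations held 2802 to 5264.

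Genes named in other generations differed in the size and stability of their effect. In generation 2 the rule named mt:ND3 (2.68 ± 0.20, adjusted p = 5.72e-16) and CR14578 (-1.67 ± 0.15, adjusted p = 5.43e-14). Npc2e, named after its values were seen, fell there by 1.44 (adjusted p = 0.000183), to 125.5 to 834.6. In generation 5 the histone pseudogene His-Psi:CR33867 (2L, 21539129 to 21541127) held 25.7 to 117.9 against 5.55 to 23.1 in generation 11 (1.34 ± 0.17, adjusted p = 7.33e-09), without overlap. Generation 6 was named by Gba1a, a glucocerebrosidase gene, at 0.92 ± 0.19 (adjusted p = 0.000816), and generation 10 by CR41544 at 0.97 ± 0.20 (adjusted p = 0.000191). Generation 13 was named by CG4835 on the lower side (-1.25 ± 0.31, adjusted p = 0.000922). The calls of Gba1a and CG4835 were lost when any 1 population was left out, and that of CR41544 without C1, C2, L2 or the second pools. CG12506 (2L, 773547 to 774017) held 38 to 589.3 in generation 10 and 0 to 18.7 in generation 3, a swing of 3.95 that was not called without the first pools (adjusted p = 0.00196). CG34176 named the lower side of generation 7 (-0.66 ± 0.14, adjusted p = 0.000113) and lost its call there without C2 (adjusted p = 0.0017) or the first pools (adjusted p = 0.00466).

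Seminal fluid genes in generation 5 rested on a single library. EbpII, a male ejaculatory bulb protein gene, held 3264 normalized counts in the first pool of L2 and at most 26 in every other female library, and Ebp and Sfp87B held 13022 and 2977 there against at most 92.5 and 34.8. Without that library the swing of EbpII was 1.51 in place of 5.11. The females were labelled virgin, and the source of these reads was not tested.

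Males of the same populations were fitted for comparison. Males alone, fitted in the same way on 153 libraries, gave 11316 of 13611 genes called (83.1%), and 87.2% of the 9826 genes that were tested in both sexes. Of the 7389 called female genes tested in males, 93.8% were called there as well, and 80.9% of the called male genes were called in females. Among the 6928 genes called in both, the correlation of the 13 generation levels between the sexes had a median r of 0.84 and was above 0 in 99.5%, as a description over generations that both sexes share. The highest generation was the same in 3003 of them. For the mitochondrially encoded genes r lay between 0.98 and 0.99, and mt:ND3 in male libraries held 6892 to 9212 in generation 3 and 132.7 to 219 in generation 4.

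A test of the sex by generation interaction called 1299 genes (13.0%), 1195 of them among the 7501. This number was 310 without the second pools, 742 without the first pools, 617, 652, 725 and 624 without C2, L2, S1 and S2, and 680 without pools whose labels differ. The 3 yolk protein genes were among the calls, but a male library of S1 at generation 5 held 94717 normalized counts of Yp1, and without it Yp1 and Yp2 were not called (adjusted p of 0.0965 and 0.477) and neither was Yp3 (adjusted p = 0.0109). Nuclear ribosomal protein genes such as RpS3A moved in the same direction in both sexes by different amounts, with medians of 60082 in generation 0 and 20891 in generation 12 in males.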

How the data were processed

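RNA-seq was measured in pools of whole flies. The submitters' notes name CASAVA 1.8.2, DESeq, FastQC, HTSeq and STAR. As the study's methods state, the authors aligned reads to the FlyBase genome and counted uniquely mapped reads per gene; the strand setting is not given in the sources used here. The deposited tables hold raw counts for 17478 genes and, for 13212 genes, a normalized signal that the authors made by dividing counts by a size factor for each library (0.793 to 2.47 in females). The size factors were recovered from the ratio of the 2 tables, which was constant within each library (largest coefficient of variation 2.3e-09), and 0 columns belonged to another series. Identifiers were matched to symbols for 17218 genes, and coordinates are from the BDGP6.54 annotation, which is newer than the one the authors used but on the same assembly.

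Genes with a mean normalized count of 20 or more over the 155 female libraries were tested, which differs from the authors' filter. Raw counts of the 2 pools of a population and generation were summed (78 values, with summed size factors) and fitted in edgeR 4.0.16 (R 4.3.3) by the robust quasi-likelihood method with population intercepts. Further tests compared the course beyond a straight line, each generation with the mean of the other 12, and the course between schemes, between replicate sets and between the sexes (3 male libraries with female transcripts left out). A call is an adjusted p under 0.001, and for a single generation also a difference of 1 or more. limma 3.58.1 and DESeq2 1.42.0 served as alternatives, and figures and summaries used Python 3.11.15 with pandas 2.3.3. With 6 populations a generation and an intercept for each, p-values measure how far populations depart from the shared course once their own mean levels are removed. They take the 6 as independent, but populations of a number shared deviations, so p-values from the 78 sums can be too small. The stricter fit by limma called 2096 genes in place of 7501. Counts of 34242873 to 109389826 reads a library leave genes at the filter with counting error that the fit absorbs in its dispersion. On simulated counts for 10028 genes the generation test recovered 2%, 54%, 94% and 100% of genes changed by 0.25, 0.5, 1 and 2 on the log2 scale, with 0 false calls. Those counts were drawn independently for each of the 78 sums, without the deviations that populations of a number shared. The 0 false calls hold for that setting only and do not bear on the 7501 calls.

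Named genes were the 12 widest called swings that were higher in all 6 populations, the most raised and most lowered gene of each generation on the same side in all 6, and from 38 gene lists the 3 widest members and any defining member; others are said to be chosen after their values were seen. The members and lists were chosen with earlier results of these data known. Alternatives were another normalization, filters, DESeq2, single libraries with and without the pool number as a block, no population intercepts, and leaving out pools, populations, generations and single libraries.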

Additional observations from a re-analysis of the deposited data

Results flagged for a closer look

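Of 45 sets of 6 population values examined for a value far from the others, 8 held one, in 7 genes. All 8 lay above the other populations. The rule was applied to counts that were not on a log scale, in generations where the named genes were extreme, so no chance rate is given. In generation 12, C1 held 739.5 normalized counts of Hsp70Aa against 108.3 to 336.1 in the other populations. In generation 3, L1 was the high population for 3 copies of this chaperone gene, with 18.3 for Hsp70Aa, 41.8 for Hsp70Ab and 52.3 for Hsp70Bb. L2 stood apart for EbpII in generation 5 (1699), through its first pool, and for mt:Cyt-b in generation 6 (42117), through its second. L1 stood apart for mt:ND4 in generation 5 (5411) and S2 for CG12506 in generation 10 (439.9).

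The course differed between females and males, by the interaction test in edgeR, for EbpII (adjusted p = 8.99e-10), CG12506 (adjusted p = 6.21e-07), CR14578 (adjusted p = 0.000193) and His-Psi:CR33867 (adjusted p = 0.00051), and for 1299 genes in all. In males CR14578 and His-Psi:CR33867 lay under the filter on low counts, and no male library held more than 5.46 of His-Psi:CR33867. The width of the female swing of EbpII came from the first pool of L2 in generation 5. Between populations numbered 1 and 2 the course differed for Gba1a (adjusted p = 0.000211) and for 3790 genes in all. In the library left out, C2_G2_F_R1, the sperm and testis genes summed to 6560 normalized counts.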

How the results depend on the processing

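The shared generation course was called in 7602 genes with TMM factors, 7937 without a filter on low counts, 7359 with the authors' filter, 8212 by DESeq2 and 7405 without the 4 libraries that stood apart, a choice made after seeing the data. By limma on 26 means it was 2096, and with terms for replicate set by generation added to the edgeR fit 8632. Leaving out pools or populations gave 5637 to 7432, and leaving out a generation 6926 to 7626. Without population intercepts as a block 6376 genes were called, and with single libraries and the pool number as a block 9097. Pool numbers did not pair the samples: over 77 pairs of pools the differences correlated with a median r of 0.001 (-0.74 to 0.69). Genes apart in a generation numbered 825 without a filter and 227 to 359 when pools or populations were left out, and those beyond a straight line 4110 to 5678. The course differed between schemes in 49 genes with single libraries and 51 with the pool block as well. Between replicate sets the numbers were 6489 and 6486 with these fits and 26 to 2402 when pools or populations were left out. Between the sexes they were 680 without pools whose labels differ, 310 to 1292 when pools or populations were left out, and 1280 without the male library with yolk transcripts. TMM factors moved the median of all genes by at most 0.026 on the log2 scale in any generation, and 51.3% of differences of 1 or more were then higher against 53.2%. Of the values of named genes and list members under these alternatives, 3021 kept their direction and side of the threshold, 204 were no longer called, 75 became called and 0 reversed.

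Generation and any batch of libraries cannot be told apart here. Genes under the filter were not analysed. Only 2 populations stand behind each scheme.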
